A study of Mus musculus with 12 samples.

Results

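Heat shock proteins and co-chaperones are the genes described here, as marked by N6-methyladenosine (m6A) in the mRNA peak lists of mouse neural stem cells (NSCs). A gene was taken as a member when its symbol began with Hspa, Hspb, Hsph, Hsp90 or Dnaj, with Bag or Cct and a digit, or was Hspd1, Hspe1 or Naca. By this rule 57 of the 10030 genes named in the 6 mRNA peak lists were members, with 505 of the 83673 listed peaks. The cells were C17.2, an immortalised wild-type mouse NSC line. Control cells stayed in standard oxygen. Cells of the hypoxia/reoxygenation (H/R) group were held for 12 h at 5% oxygen and returned to standard oxygen for 48 h, which serves as a culture model of ischemia and reperfusion. The 12 samples were 3 immunoprecipitates and 3 inputs from each group, and each mRNA list held the peaks of 1 immunoprecipitate. The lists are called control A, B and C and H/R A, B and C. All came from 1 cell line, and the labels do not say that the replicates were separate cultures, so every p-value below measures only the spread between these libraries, which may be technical.

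Chaperones bind unfolded or partly folded proteins and keep them from aggregating. HSP70 proteins do so in cycles of ATP binding and hydrolysis, in which J-domain proteins (the Dnaj genes) deliver clients and speed hydrolysis, while HSP110 and BAG proteins release the nucleotide. HSP90 takes over clients at a later stage, small HSPs hold unfolded proteins without ATP, chaperonins fold proteins inside a closed ring, and the nascent polypeptide-associated complex shields new chains at the ribosome. Many of these genes are switched on by heat, low oxygen and other stresses to protein folding. m6A is a methyl mark on adenosines of RNA, set mostly within the consensus DRACH, and it affects splicing, translation and decay of the mRNAs that carry it.

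A peak is a stretch of RNA with more fragments in the immunoprecipitate than in the local background that the peak caller MACS estimated, and its fold enrichment is the ratio between them. The p score is 10 times the -log10 of the caller's p-value. The mRNA lists held 7863 to 12180 peaks in the control libraries and 13954 to 22038 in the H/R libraries, so the groups' list lengths did not overlap. Control A was the longest control list and H/R B the shortest H/R list, and the counts of H/R-only members, of members with more peaks and of H/R-only regions are also given without each. No member peak had a false discovery rate of 5% or less in any list. Peaks that low were rare over all genes too. The longest control list, control A, held 7 of them, control C held 2 and H/R C held 6, while every other list held none. A peak list does not hold expression values, and the number of reads behind it is not given there, so a peak that is missing can reflect less methylation, less RNA or fewer reads, which the lists alone do not tell apart. Of 8 markers of neural stem cells, 4 had a peak, among them Nes, Notch1 and Sox2 in all 6 lists. Of the markers of other cell types, 1 of 5 for neurons (Map2, in 5 lists), 1 of 4 for astrocytes (Gfap, in control B and C) and 1 of 4 for microglia (P2ry12, in H/R C) had a peak.

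The H/R lists held peaks on several coding exons of members that no control list called. Printed here are those that held a motif and were centred in coding sequence more than 100 bases from the start and stop codons. All were filled exactly by 1 peak in each of the 3 H/R lists. They were read from the mm10 (GRCm38) RefSeq genome on the transcript strand, with DRACH motifs in capitals (D stands for A/G/T, R for A/G and H for A/C/T, sought on that strand alone). The exons are chr10:128046168-128046253 (plus strand, exon 3 of 8 of Naca), chr8:85553187-85553410 and chr8:85548564-85548697 (minus strand, exons 3 and 5 of 9 of Dnaja2), chr5:21783047-21783237 (minus strand, exon 2 of 17 of Dnajc2), chr4:141764568-141764738 (minus strand, exon 14 of 15 of Dnajc16) and chr4:40941525-40941638 (minus strand, exon 4 of 7 of Bag1).
Naca exon 3: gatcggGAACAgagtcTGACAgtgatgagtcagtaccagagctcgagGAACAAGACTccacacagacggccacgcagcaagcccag
Dnaja2 exon 3: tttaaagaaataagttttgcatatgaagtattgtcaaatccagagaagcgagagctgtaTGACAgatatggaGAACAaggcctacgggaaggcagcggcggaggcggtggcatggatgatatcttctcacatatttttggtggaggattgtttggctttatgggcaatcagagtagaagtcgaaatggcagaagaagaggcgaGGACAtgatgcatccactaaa
Dnaja2 exon 5: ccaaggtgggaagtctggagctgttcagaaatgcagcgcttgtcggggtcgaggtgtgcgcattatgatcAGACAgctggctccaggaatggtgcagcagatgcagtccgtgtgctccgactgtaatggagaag
Dnajc2 exon 2: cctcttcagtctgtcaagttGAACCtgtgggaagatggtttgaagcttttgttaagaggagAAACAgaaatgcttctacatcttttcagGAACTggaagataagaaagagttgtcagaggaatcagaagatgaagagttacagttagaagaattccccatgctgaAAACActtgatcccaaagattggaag
Dnajc16 exon 14: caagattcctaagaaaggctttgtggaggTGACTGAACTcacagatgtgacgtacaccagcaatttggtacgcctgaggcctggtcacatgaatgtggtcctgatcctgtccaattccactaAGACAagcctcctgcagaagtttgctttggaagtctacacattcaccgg
Bag1 exon 4: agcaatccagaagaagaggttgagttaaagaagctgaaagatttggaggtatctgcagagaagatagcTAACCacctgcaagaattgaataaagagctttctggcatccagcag

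These exons held 4 motifs in Naca, 3 and 1 in Dnaja2, 4 in Dnajc2, 3 in Dnajc16 and 1 in Bag1. A like exon of Dnajb14 (exon 5 of 8, 95 bases) held none. Their fold enrichment over the 3 H/R lists was 7.03 to 10.7 in Naca, 6.82 to 7.34 and 4.66 to 7.75 in Dnaja2, 6.75 to 15.0 in Dnajc2, 8.71 to 14.3 in Dnajc16 and 3.25 to 6.65 in Bag1. Over the classed peaks of all genes, 96.6% in the control lists and 94.9% in the H/R lists (means of 3 lists each) held at least 1 DRACH motif, so a match sets no peak apart. A motif is a match of letters, and which adenosine was methylated was not measured.

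The first comparison asked how many members carried a peak in each group. A member counted as called where a list held at least 1 mRNA peak under its symbol. Called members numbered 42, 30 and 33 in the control lists, given here and below in the order A, B and C, and 50, 47 and 54 in the H/R lists. The groups did not overlap, with 35 ± 6.25 members in the control lists and 50.3 ± 3.51 in the H/R lists (SD, n = 3; two-sided exact permutation p = 0.1, the smallest that 3 against 3 allows). As a share, 61.4% ± 11.0 of the members were called in the control lists and 88.3% ± 6.16 in the H/R lists, against 54.5% ± 9.06 and 78.7% ± 11.6 of all genes (SD, n = 3). Peaks on members numbered 79, 53 and 55 in the control lists and 106, 89 and 123 in the H/R lists. Their share of all mRNA peaks did not go the same way, at 0.649%, 0.593% and 0.699% in the control lists and 0.567%, 0.638% and 0.558% in the H/R lists. That difference of -0.0596 percentage points was within the range of the libraries (exact permutation p = 0.2). Over the 23 members called in all 6 lists, the mean number of peaks per member was 2.09 ± 0.230 in the control lists and 2.75 ± 0.214 in the H/R lists (SD, n = 3; exact permutation p = 0.1). The difference was 0.667 peaks per member, beside 1.04 peaks per gene over all 3966 genes called in all 6 lists. The longer H/R lists thus held more member peaks, while the members' shares of the lists overlapped. Every list was also held to its 7863 highest p scores, and the members called in all 6 lists were then taken anew. The peaks per member differed by -0.105 and the share by 0.0382 percentage points, both opposite in sign to the full lists.

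**Figure D1:**
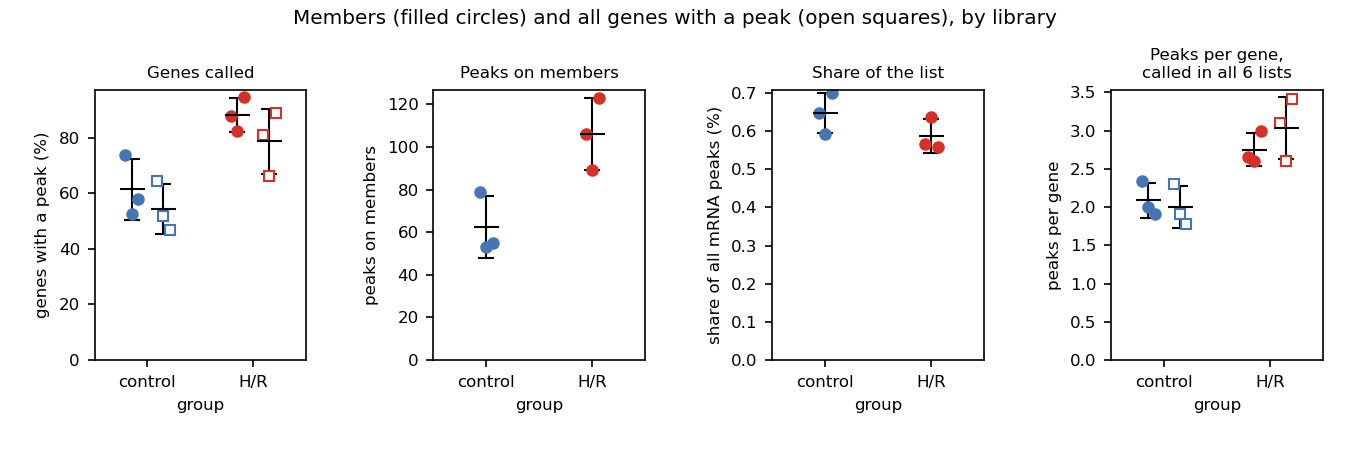
Members (filled circles) and all genes with a peak (open squares) in each control library (blue) and H/R library (red), with mean and SD over 3 libraries. The panels show, from left to right, the percentage of genes with a peak, the number of peaks on members, their share of all mRNA peaks of the list in percent, and the mean peaks per gene among genes called in all 6 lists; counts on members were higher in every H/R library, while the shares of the list overlapped.

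Of 90 protein-coding symbols in RefSeq that fit the rule, 57 (63.3%) had a peak in at least 1 list, against 42.0% of all 21900 RefSeq protein-coding symbols. The 33 without a peak included all 9 Cct symbols, which encode subunits of the cytosolic chaperonin CCT and relatives. They also included Hspa5 (the HSP70 of the endoplasmic reticulum, ER), Hspa8 (the constitutive cytosolic HSP70), Hsp90ab1 (the constitutive cytosolic HSP90), Hspd1 (the mitochondrial chaperonin ring), Dnaja1 (a cytosolic J-domain protein) and Hspb1 (a small HSP). Of the 8 Hspb symbols counted here as small HSPs by their name, 6 had no peak. The peak lists do not say whether these transcripts were present in the cells. The paper's RNA sequencing did list Hspa5, among its most significantly decreased mRNAs after H/R. All 6 Bag symbols and all 3 HSP110 symbols had a peak, as did 22 of 28 in class C of the J-domain proteins.

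H/R-only members, which every H/R list called but none of the control lists, numbered 7 of 57 (12.3%), against 4.96% of all genes. They were Naca, Dnaja2, Dnajc7, Dnajc15, Hspa9, Hspbp1 and Bag4. The reverse (control-only) held for 0 members, against 0.0698% of all genes. Members with more peaks in every H/R list than in every control list numbered 12 (21.1%), against 14.8% of all genes, namely these 7 with Dnajc2, Dnajc13, Dnajc16, Hspa4l and Hsph1. No member had fewer peaks in every H/R list, as did 0.12% of all genes. The 23 members in all 6 lists were 40.4% of the members, beside 39.5% of all genes. The H/R-only count rested on the setting. With a fold enrichment of at least 10 it was 0 of 54 members, beside 1.58% of 8015 genes. That cut fell harder on the H/R lists, where the median fold of all peaks was 9.34 to 15.5, beside 21.8 to 33.9 in the control lists. With a p score of at least 100 the count was 4 of 55 (Bag4, Dnaja2, Hspa9 and Naca, 7.27%), beside 5.97% of 8811. With lists of equal length it was 5 of 49 (the same 4 and Dnajb2, 10.2%), beside 1.13% of 6444. Without control A it was 12 of 57 (21.1%) beside 10.8% of genes, and without H/R B 8 of 57 (14.0%) beside 11.7%. Members with more peaks numbered 20 of 57 (35.1%) without control A, beside 26.0% of genes, and 18 (31.6%) without H/R B, beside 32.1%, so that without H/R B the members' share was no higher than that of all genes.

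**Figure D2:**
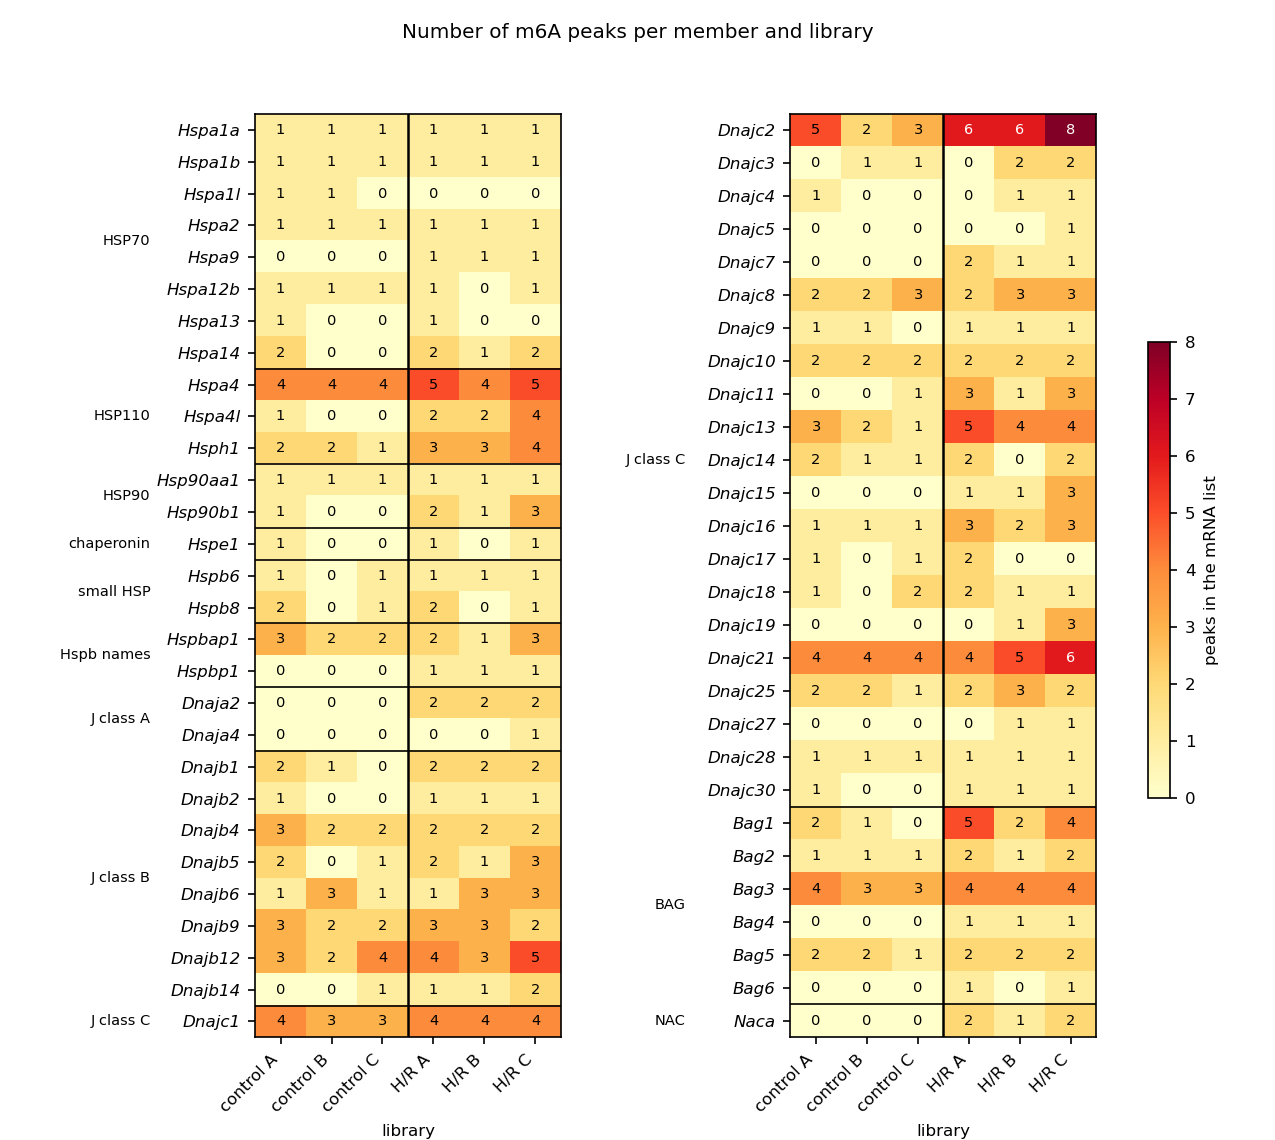
Number of peaks on each of the 57 members (rows, grouped by role) in each mRNA list (columns), with the control libraries to the left of the black line. Colour and printed number both give the count, from 0 to the 8 peaks of Dnajc2 in H/R C; 7 rows have 0 in all control lists and at least 1 in all H/R lists.

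Among the HSP70 genes, 8 of 11 symbols had a peak. The stress-inducible Hspa1a and Hspa1b, which have 1 exon each, held 1 peak in every list. Hspa1a had a fold enrichment of 69.5, 84.3 and 55.5 in the control lists and of 35.8, 29.7 and 26.2 in the H/R lists. Hspa1b had 55.5, 73.7 and 48.0 in the control lists and 25.7, 28.6 and 45.5 in the H/R lists. Both were lower in every H/R list than in every control list, as were 53.6% of the 3966 genes called in all 6 lists. Ranked among those genes within each list, neither was lower in every H/R list. Hspa1a lay at percentiles 84.8, 84.6 and 79.1 in the control lists and 83.1, 59.1 and 58.8 in the H/R lists. Hspa1b lay at 77.0, 79.7 and 73.2 and then 67.3, 57.0 and 84.9. The copies are near-identical, and the study states that reads with several matches were dropped, so the values of each are uncertain. Hspa2, an HSP70 best known from the male germ line, also had 1 peak in every list, on its coding exon, with a fold of 99.5, 87.1 and 49.7 in the control lists and 48.5, 38.4 and 42.9 in the H/R lists.

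Hspa9, the mitochondrial HSP70 that pulls imported proteins into the matrix, was H/R-only. It had 1 peak in its last exon in each H/R list, centred in the 3'UTR, with a fold of 9.67, 14.3 and 10.8. Hspa14, which forms a ribosome-bound pair with Dnajc2, had 2, 0 and 0 peaks in the control lists and 2, 1 and 2 in the H/R lists, and Hspa13, an HSP70 of the ER, had 1 peak in control A and 1 in H/R A. Hspa12b, a distant relative of HSP70, lacked a peak in H/R B alone.

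Hspa1l, an HSP70 gene beside Hspa1a, went the other way, with 1 peak in control A and control B and none in the other lists. Its fold was 17.7 in control A and 156 in control B. A peak named for Gm10501, in the lists of long noncoding RNA (lncRNA), overlapped the same place in control C and H/R A. The lists label Gm10501 a natural antisense transcript of Hspa1l, so they assign that peak to the opposite strand. By position alone, without regard to strand, the locus was therefore called in all 3 control libraries and in 1 H/R library when both kinds of list were read.

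The HSP110 genes, large relatives of HSP70 that release its nucleotide, had 7, 6 and 5 peaks in the control lists and 10, 9 and 13 in the H/R lists. Hspa4 had 4 peaks in each control list and 5, 4 and 5 in the H/R lists. Its peaks on coding exons 12 and 15 of 19 were in all 6 lists. A further region from the start of its last exon into the 3'UTR (chr11:53260341-53261815) was H/R-only, with a fold of 6.46 to 11.6. Hspa4l had 1, 0 and 0 peaks in the control lists and 2, 2 and 4 in the H/R lists. Hsph1, the inducible member, had 2, 2 and 1 and then 3, 3 and 4 peaks. Of these 15 peaks, 7 had their centre in an intron of the coding models. Its H/R-only region (chr5:149623266-149623596) was of that kind, with a fold of 2.88 to 6.2. For Hspa4l and Hsph1 the lowest H/R count was above the highest control count (exact permutation p = 0.1 for each, the smallest possible).

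Hsp90aa1, the stress-inducible cytosolic HSP90, held 1 peak in every list. It lay in the last exon of 11 (chr12:110690605-110691649, minus strand), centred in the 3'UTR. The fold was 50.8, 57.3 and 47.3 in the control lists and 21.3, 38.1 and 20.3 in the H/R lists. Hsp90b1, the ER form, had 1, 0 and 0 peaks in the control lists and 2, 1 and 3 in the H/R lists, so control A overlapped the H/R range. In the paper's RNA sequencing the Hsp90b1 mRNA was among those most significantly decreased after H/R. Hspe1, the lid of the mitochondrial chaperonin, had a peak in control A, H/R A and H/R C. The small HSP Hspb8, a partner of Bag3 in selective autophagy, had 2, 0 and 1 and then 2, 0 and 1 peaks, the same counts in both groups.

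Class A of the J-domain proteins, the form closest to bacterial DnaJ, had no peak in any control list. Dnaja2, a cytosolic co-chaperone of HSP70, had 2 peaks in every H/R list, on the coding exons printed above. Its highest fold was 7.04, 7.75 and 7.05, below the median of all mRNA peaks in H/R A (9.34), H/R B (15.5) and H/R C (10.1). An lncRNA that the lists name AK163592, which overlaps Dnaja2 in sense, had 1 peak in each of the 6 lncRNA lists.

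Class B held 15, 10 and 11 peaks in the control lists and 16, 16 and 20 in the H/R lists. Control A thus came close to the H/R range. Of its 8 members with a peak, 0 were H/R-only, beside 4.96% of all genes. In all 6 lists were 4 (50%, beside 39.5% of all genes), namely Dnajb4, Dnajb6, Dnajb9 and Dnajb12. Dnajb1, the heat-inducible partner of HSP70, had 2, 1 and 0 peaks and then 2 in each H/R list, with a fold of 69.1 in control A, 36.7 in control B and 55.9, 71.9 and 87.1 in the H/R lists. Dnajb6, which holds back aggregation of polyglutamine proteins, had 1, 3 and 1 peaks and then 1, 3 and 3. A region at its start codon (chr5:29748345-29748435, plus strand, exon 2 of 8) was H/R-only. Dnajb4, a cytosolic J-domain protein, had 3, 2 and 2 and then 2, 2 and 2 peaks.

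Class C held 31, 22 and 25 peaks in the control lists and 43, 41 and 53 in the H/R lists. Dnajc2, a ribosome-associated J-domain protein that acts on new chains with Hspa14, had 5, 2 and 3 peaks in the control lists and 6, 6 and 8 in the H/R lists. The difference in means of 3.33 peaks was the largest among the 57 members in these lists. A peak on exon 9 of 17 (chr5:21768437-21768558) was in all 6 lists with a fold of 21.8 to 99.2, and the H/R lists added exon 2. Dnajc21, which helps mature the large ribosomal subunit, had 4 peaks in each control list and 4, 5 and 6 in the H/R lists. Its highest fold, on exon 5 of 12 (chr15:10461120-10461424), was 98.4, 163 and 172 in the control lists and 58.2, 88.4 and 59.4 in the H/R lists. Dnajc1, an ER membrane protein whose J-domain faces the lumen, had 4, 3 and 3 and then 4, 4 and 4 peaks.

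**Figure D3:**
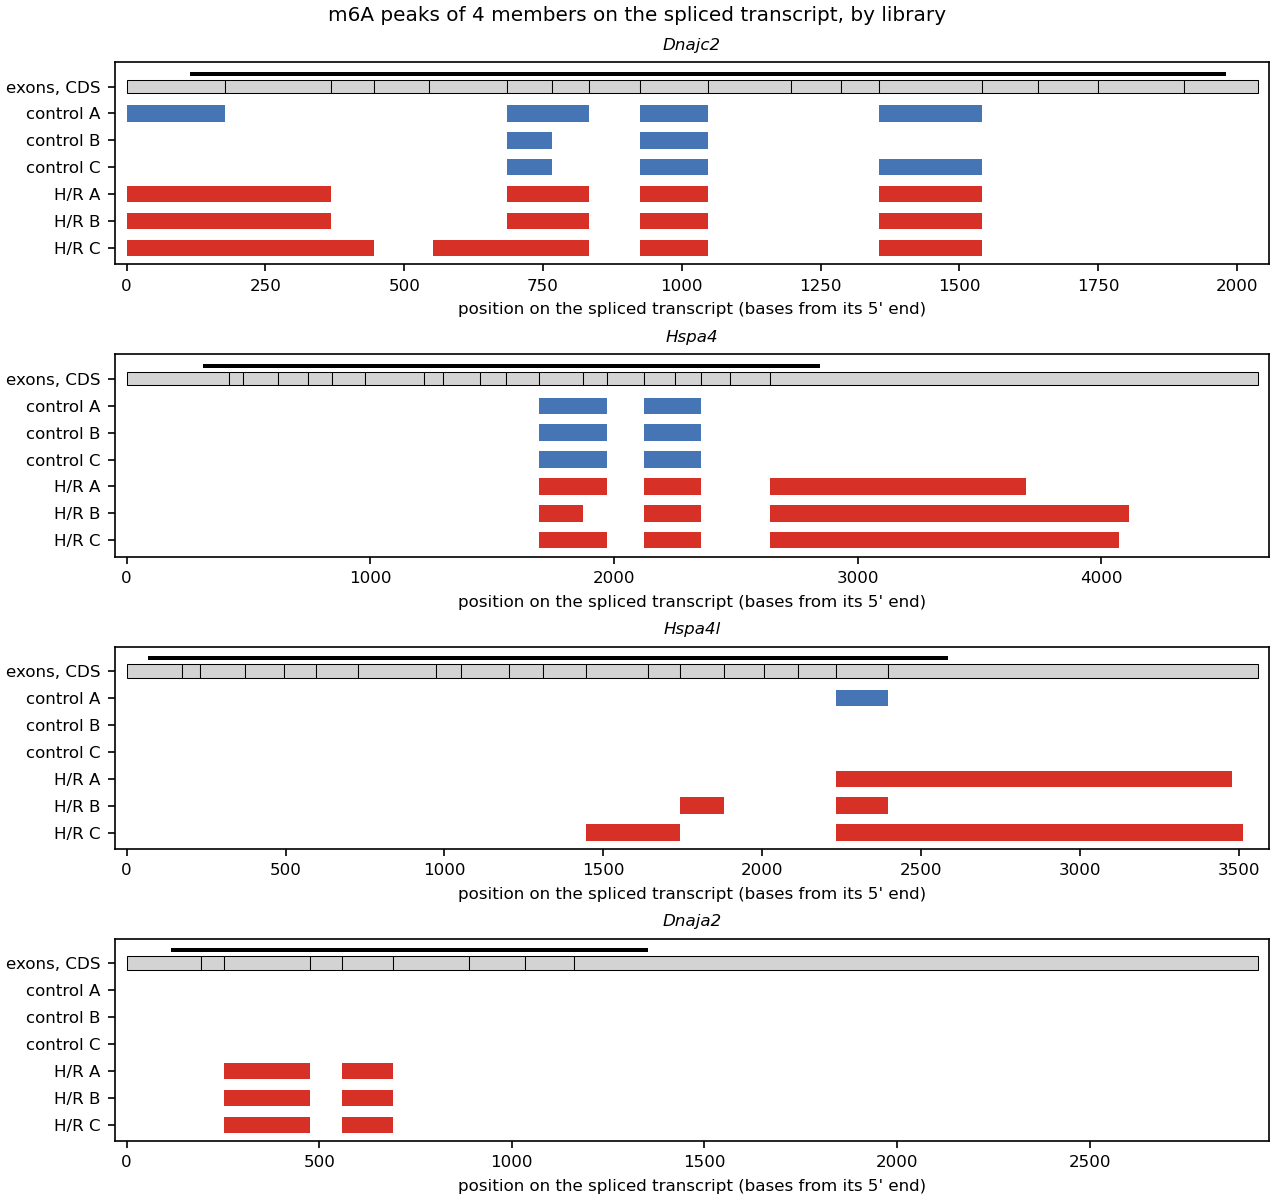
Peaks of Dnajc2, Hspa4, Hspa4l and Dnaja2 on 1 RefSeq transcript of each gene, in bases from its 5' end, with exons as grey boxes, the coding sequence as a black bar, control peaks in blue and H/R peaks in red. Intronic parts of peaks are left out and neighbouring peaks touch; most blocks fill 1 exon, the H/R blocks in the last exons of Hspa4 and Hspa4l end inside them, and the H/R libraries added exon 2 of Dnajc2, the first part of the last exon of Hspa4 and 2 exons of Dnaja2.

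Dnajc13, an endosomal J-domain protein, had 3, 2 and 1 peaks in the control lists and 5, 4 and 4 in the H/R lists. A peak that filled its first exon, centred in the 5'UTR (chr9:104262699-104262930, minus strand), was in all 6 lists. Dnajc16, of the ER, had 1 peak in every control list, in its last exon, and 3, 2 and 3 in the H/R lists. Dnajc15, which acts at the inner membrane of mitochondria, had 0 in the control lists and 1, 1 and 3 in the H/R lists. The shared region lay at the start codon in its first exon (chr14:77874798-77874917), with a fold of 8.53 to 10.3. Dnajc11, of the mitochondrial membranes, had 0, 0 and 1 and then 3, 1 and 3 peaks, so the groups met at 1.

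Dnajc7, which binds both HSP70 and HSP90 through its TPR repeats, had no mRNA peak in the control lists and 2, 1 and 1 in the H/R lists. The region shared by the H/R lists filled its first exon (chr11:100619528-100620168), with p scores of 66.8 to 104, close to the lowest score listed, 50. The lncRNA lists held peaks on noncoding transcripts named Dnajc7, which overlap its exons in sense, in every library, with 3, 2 and 2 in the control libraries and 2, 3 and 2 in the H/R libraries. The Dnajc7 locus was therefore called in the control libraries also. Dnajc3, an ER co-chaperone and inhibitor of eIF2-alpha kinases, had 0, 1 and 1 and then 0, 2 and 2 peaks.

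The BAG genes, which release nucleotide from HSP70, held 9, 7 and 5 peaks in the control lists and 15, 10 and 14 in the H/R lists. Bag1 had 2, 1 and 0 and then 5, 2 and 4 peaks. Bag2, an inhibitor of the ubiquitin ligase Chip, had 1 in each control list and 2, 1 and 2 in the H/R lists. Bag3, which directs HSP70 clients to autophagy, had 4, 3 and 3 and then 4, 4 and 4 peaks, and every list held peaks on its exons 1, 3 and 4 of 4 (its last exon at chr7:128545590-128546979, fold 17.1 to 36.3). Bag5 had 2, 2 and 1 and then 2, 2 and 2, with a fold of 57.4, 85.7 and 51.4 in the control lists and 35.6, 40.1 and 27.8 in the H/R lists. Bag6, which guides membrane proteins and misfolded proteins away from aggregation, had mRNA peaks in H/R A and H/R C alone. Noncoding transcripts named Bag6, which overlap its exons in sense, had 1 peak in each control list of lncRNA and 1, 0 and 2 in the H/R lists, so the Bag6 locus was called in all 3 control libraries.

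Bag4, a BAG protein that binds death receptors, had 1 peak in the 3'UTR in each H/R list (chr8:25766929-25768409, minus strand), with a fold of 7.72, 13.3 and 11.2, and none in the control lists under its own name. Peaks named for Gm17484 overlapped that region in all 3 control lists, with a fold of 16.1, 19.8 and 22.0. The lists do not state how a peak on overlapping genes was named. With peaks under another name counted, 6 of 57 members were H/R-only (10.5%, beside 4.94% of all genes), all but Bag4 of the 7.

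Naca, the alpha subunit of the nascent polypeptide-associated complex, had 0 peaks in each control list and 2, 1 and 2 in the H/R lists. The peak on the exon printed above was in all 3 H/R lists, with a fold of 7.03 to 10.7 and p scores of 882 to 1054. Hspbp1, which releases nucleotide from HSP70, had 1 peak at its stop codon in each H/R list (chr7:4660521-4660845, minus strand), with a fold of 16.6, 11.6 and 7.44. Hspbap1, whose product binds the small HSP Hspb1, had 3, 2 and 2 and then 2, 1 and 3 peaks. Of the 7 H/R-only members, 2 (Dnaja2 and Dnajc7) had control peaks within the gene in the lncRNA lists and 1 (Bag4) had control mRNA peaks under another name. For the other 4 (Naca, Dnajc15, Hspa9 and Hspbp1) neither was the case. Of these, Dnajc15 and Hspbp1 were no longer H/R-only with a p score of at least 100 or with lists of equal length. Their highest p score in an H/R list was as low as 60.0 for Dnajc15 and 63.2 for Hspbp1, close to the lowest score listed, 50.

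The second comparison asked where on the mRNA the peaks lay. A peak was classed by its centre, with windows of 100 bases before and after each of the start and stop codons given precedence, and 454 of the 505 member peaks could be classed. The other 51 had their centre in an intron of the coding models, 50 of them on transcripts of 9 genes for which no model was in the reference used here. Coding sequence held 50.7%, 57.4% and 55.1% of the classed member peaks in the control lists and 47.4%, 52.5% and 46.4% in the H/R lists, so the groups overlapped (exact permutation p = 0.2). The start codon window held 17.4%, 14.9% and 16.3% in the control lists and 19.6%, 17.5% and 19.6% in the H/R lists, without overlap (exact permutation p = 0.1, the smallest possible). Over all genes the start codon window held 10.2% ± 0.343 and 12.3% ± 0.902 (SD, n = 3). With lists of equal length the member difference turned to -0.641 percentage points, from 2.71. The 3'UTR held 17.6% ± 2.76 and 17.5% ± 2.01 of the member peaks (SD, n = 3; exact permutation p = 1) and, over all genes, 21.8% ± 1.60 and 17.3% ± 1.33.

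**Figure D4:**
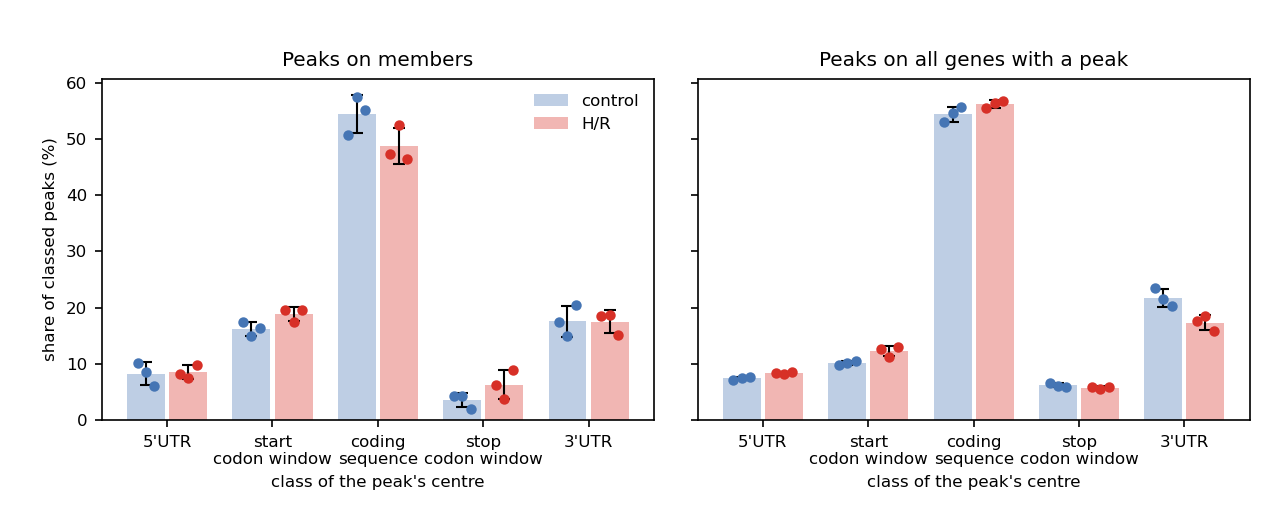
Share of classed peaks in percent whose centre lay in each part of the mRNA, for members (left) and all genes with a peak (right), in control (blue) and H/R (red) libraries, with bars for means, error bars for SD and points for the 3 libraries. Coding sequence held the largest share in every library, and the start codon window held more of the member peaks (14.9% to 19.6%) than of all peaks.

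Most of the listed peaks followed exon borders. Of the 505 member peaks, 313 (62.0%) began and ended exactly at the borders of 1 exon, 61.7% ± 3.23 in the control lists and 62.3% ± 3.58 in the H/R lists (SD, n = 3). Over all genes the shares were 67.4% ± 1.00 and 66.1% ± 6.29. A peak on a short internal exon therefore shows the exon, not the position of a mark inside it. The median member peak was 414 ± 24.0 bases long in the control lists and 322 ± 17.6 in the H/R lists (SD, n = 3), against 535 ± 38.4 and 298 ± 53.5 over all genes. At equal list length the members' difference was 33 bases in the other direction. DRACH motifs were present at 18.9 ± 0.351 and 19.3 ± 0.250 per kilobase of member peaks (SD, n = 3; exact permutation p = 0.3) and at 20.7 ± 0.113 and 20.4 ± 0.161 over all peaks.

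Merging the overlapping member peaks of the 6 lists gave 158 regions. H/R-only regions numbered 15 (9.49%), in 14 genes, against 6.21% of 27132 regions of all genes. Control-only regions numbered 0, against 0.059%. Regions in all 6 lists numbered 31 (19.6%), against 21.9%. Of the 15 H/R-only regions, 7 were centred in coding sequence, 3 in the 3'UTR, 2 in the start codon window, 1 each in the 5'UTR and stop codon window, and 1 outside the coding models. In 10 of them every peak filled 1 exon, and 5 lay in genes that all 3 control lists called elsewhere (Dnajb6, Dnajc2, Dnajc16, Hspa4 and Hsph1). The H/R-only regions were shorter, with a median of 191 bases beside 469 for those in all 6 lists. Without control A the H/R-only member regions numbered 25 of 157 (15.9%), beside 11.4% of all regions, and without H/R B 23 of 151 (15.2%), beside 14.4%.

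Fold enrichment was lower in the H/R lists on members and on all genes alike. The median over member peaks was 20.8, 31.3 and 24.3 in the control lists and 9.73, 14.3 and 10.2 in the H/R lists, without overlap (exact permutation p = 0.1, the smallest possible), and over all peaks it was 21.8 to 33.9 and 9.34 to 15.5. Of the 23 members in all 6 lists, 16 (69.6%) had a lower highest fold in every H/R list than in every control list, against 53.6% of all 3966 such genes, and 0 had a higher one, against 0.277%. To set this shift of the whole list aside, each gene's highest fold was ranked among the 3966 genes of the same list. Only Dnajb12 and Dnajc2 were then lower in every H/R list (2 of 23, beside 7.16% of genes), and only Dnajc16 was higher (beside 9.23%). Dnajc2 lay at percentiles 92.9, 83.0 and 79.1 in the control lists and 76.3, 75.8 and 63.5 in the H/R lists. Dnajc16 lay at 10.0, 10.7 and 5.06 and then 12.4, 18.8 and 19.1. Dnajc21 stayed high in each list, at percentiles from 92.1 to 98.4. The 7 H/R-only members had a highest fold between 6.49 and 16.6 in the H/R lists.

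For the members with strong peaks in all 6 lists, the DRACH motif nearest to the middle of the stretch that every list called is shown with 8 bases on either side, as an example of what these peaks cover. The windows are from the mm10 RefSeq genome on the transcript strand, with the motif in capitals, at chr15:10461250-10461270 (Dnajc21), chr2:18219674-18219694 (Dnajc1), chr12:111710502-111710522 (Bag5), chr12:76405469-76405489 (Hspa2), chr5:21768530-21768550 (Dnajc2) and, in the 3'UTR, chr12:110691167-110691187 (Hsp90aa1).
Dnajc21 exon 5: agaaaaatGAACTggtgcgcc
Dnajc1 exon 11: tgaggctgTAACCagagtgga
Bag5 exon 2: taaaaaatGAACTtctccagg
Hspa2 exon 1: cttccgagGGACCctggagcc
Dnajc2 exon 9: tacagttgTGACCcaaggata
Hsp90aa1 exon 11: aaacaaccTGACAggaattcc

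The stretches called by every list held 4 motifs in Dnajc21 (305 bases), 13 in Dnajc1 (449 bases), 45 in Bag5 (1812 bases), 37 in Hspa2 (2054 bases), 1 in Dnajc2 (122 bases) and 22 in Hsp90aa1 (983 bases). The stretch of Hspa4 exon 12 (182 bases), also in all 6 lists, held none.

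By compartment, the mitochondrial list had 7 of 9 genes with a peak and held 3, 1 and 2 peaks in the control lists and 8, 6 and 13 in the H/R lists. Of these 7, Hspa9 and Dnajc15 were H/R-only (28.6%, beside 4.96% of all genes) and 1 was in all 6 lists (14.3%, beside 39.5%). With a p score of at least 100, or with lists of equal length, Hspa9 was still H/R-only and Dnajc15 was not. The ER list had 12 of 14 genes with a peak and held 20, 14 and 18 and then 26, 22 and 28 peaks, with 0 H/R-only members and 6 in all 6 lists (50%). Heat-inducible genes had 9 of 14 with a peak, 15, 9 and 8 and then 17, 14 and 19 peaks, with 0 H/R-only members and 5 in all 6 lists (55.6%). The 3 lists do not exclude each other's genes and are small, so these counts are given as a description.

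Other chaperones and cofactors outside the rule, a list of 62 genes, had 45 with a peak. Of these, 33, 28 and 26 were called in the control lists and 43, 35 and 41 in the H/R lists (exact permutation p = 0.1), on average 64.4% and 88.1%, beside 54.5% and 78.7% of all genes. H/R-only genes numbered 2 of 45 (4.44%), near the 4.96% of all genes, namely Pfdn4, a subunit of the prefoldin that hands clients to CCT, and Txndc9, a cofactor of CCT. Both had 2 peaks in every H/R list. Bbs10, a chaperonin-like gene, had 1 peak in every control list and none in the H/R lists. Of the 45 genes, 7 (15.6%) had more peaks in every H/R list than in every control list, near the 14.8% of all genes. The reverse held for 1 (2.22%, beside 0.12%). Among the 7, Stip1, which links HSP70 to HSP90, had 1, 0 and 0 and then 3, 3 and 4 peaks. St13, another HSP70 cofactor, had 6 peaks in each control list and 7, 8 and 8 in the H/R lists, with a fold of 106 to 291.

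In the lncRNA lists, noncoding transcripts named for family genes had 21, 16 and 15 peaks in the control lists and 24, 23 and 28 in the H/R lists, over 19 genes (exact permutation p = 0.1). The lncRNA lists as a whole held 1594, 1115 and 1047 peaks in the control libraries and 2649, 1980 and 3243 in the H/R libraries. The family's share of them went the other way, at 1.32%, 1.43% and 1.43% in the control lists and 0.906%, 1.16% and 0.863% in the H/R lists (exact permutation p = 0.1). Most of these transcripts overlap the coding gene's exons in sense, so reads of the mRNA and of the noncoding form cannot be told apart by these lists. Dnaja1, which had no peak in the mRNA lists, had 0, 0 and 1 and then 2, 4 and 4 peaks here. Dnajc8, a splicing-associated J-domain protein, had 4 peaks in each control list and 4, 4 and 3 in the H/R lists, and Dnajc2 had 2 in every list. In the lists of circular RNA, 3 members had 12 peaks in all, 3, 2 and 0 in the control lists and 3, 2 and 2 in the H/R lists, on Dnajc1, Dnajc13 and Hspa4l (exact permutation p = 0.9). Those lists held 1076, 809 and 705 peaks in all in the control libraries and 1625, 1329 and 1947 in the H/R libraries.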

How the data were processed

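Peaks came from methylated RNA immunoprecipitation sequencing of C17.2 NSCs, 3 immunoprecipitates and 3 inputs per group. Per the submitters' processing notes and the paper, the authors trimmed reads with cutadapt (version 1.9.3), aligned them with HISAT2 (version 2.0.4) to mm10, kept uniquely mapped reads, called peaks per library with MACS (version not given in the sources used here) and kept the parts on exons. Replicates were not pooled. The deposited lists give for each peak a score (10 times the -log10 of the caller's p-value, from 50 upward), a fold enrichment (a ratio of immunoprecipitate to local background), and a false discovery rate in percent, as the authors computed them. Peak lengths were taken from the listed start and end. The study's read numbers were not used, so the depth behind a peak is unknown here and no counting interval is given.

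From the 18 deposited lists (6 each for mRNA, lncRNA and circRNA), the rule was applied to the gene symbols of the 6 mRNA lists, and peaks were counted per library in Python 3.11.15 (pandas 2.3.3, numpy 2.4.6). Library values were compared by two-sided exact permutation tests on the group means (3 libraries a side; smallest p 0.1), so that no comparison could pass 0.05. Counts of genes and regions were given beside the same counts over all genes, with no test. Regions were merged per gene where peaks overlapped by at least 1 base. Peak centres were classed on the listed transcript (GENCODE vM21 or RefSeq of the same build), otherwise on the longest coding model of the gene that contained the centre. Of the 505 member peaks, 436 lay on their listed transcript. Sequences were read with pysam 0.24.0. The counting was checked on simulated data. Libraries were grouped by the labels, and no comparison was made between immunoprecipitates and inputs.

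The members, gene lists and tests were chosen with earlier results of these data known. Members named in the text are the H/R-only and control-only ones, those whose counts do not overlap between groups, the 10 with the largest difference in mean peak number, the 10 in all 6 lists with the highest lowest p score, and a fixed set of well-known family genes. Dnajb12, Dnajb14, Dnajb9, Dnajc8, Hspa12b, Hspa1l and Hspbap1 were named after their values were seen. Of the other chaperones the rule named Pfdn4, Txndc9 and Bbs10, and Stip1 and St13 were named after their values were seen. Alternatives were lists of equal length, a fold enrichment of at least 10, a p score of at least 100, peaks under another name, a 50% overlap for regions, counting each base, leaving out each library and, chosen after seeing the data, leaving out peaks that fill an exon. The markers of a further cell type are not reported here.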

Additional observations from a re-analysis of the deposited data

How the results depend on the processing

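No paired analysis was possible because the letters A to C of the lists match no replicate number in the labels. No test between libraries could pass 0.05, so directions and counts are compared. Under each setting, peaks per member were taken over the members that were called in all lists used there. With lists of equal length, the share of peaks on members (0.0382 percentage points), the peaks per member (-0.105), the start codon window (-0.641 percentage points), the 3'UTR (4.01 percentage points) and the peak length (33 bases) turned in direction. There, 5 of 49 members were H/R-only (10.2%, beside 1.13% of genes, 4 of them shared with the full lists), 1 was control-only (Hspbap1, 2.04%, beside 1.32%), 5 had more (10.2%, beside 2.51%) and 2 fewer peaks (4.08%, beside 2.22%) in every H/R list, and of 90 member regions 5 were H/R-only (5.56%, beside 1.41%) and 2 control-only (2.22%, beside 1.27%). Other chaperones called then differed by 0, with 0 H/R-only. With only peaks of a fold of at least 10, the member peaks (-0.333), peaks per member (-0.228), start codon window (-1.79), 3'UTR (0.0722), DRACH motifs per kilobase (-0.104) and other chaperones called (-1.33) turned. H/R-only members, members with more peaks, H/R-only regions and H/R-only other chaperones were then 0, with 2 members with fewer peaks (3.70%, beside 1.09% of genes) and 2 control-only regions (1.87%, beside 0.820%). A p score of at least 100 gave 4 H/R-only members, 7 with more peaks (12.7%, beside 15.7% of genes) and a 3'UTR difference of 0.219, and counting each base gave 2.42 for the 3'UTR. Leaving out peaks that fill an exon, chosen after seeing the data, gave 4 H/R-only members (Bag4, Hspa1b, Hspa4l and Hspbp1, 10% of 40, beside 3.87% of 7680 genes) and 6 with more peaks (15%, beside 4.87%). Hspa1b and Hspa4l were among these H/R-only members only because their control peaks filled an exon and were left out. Hspa1b peaks covered 2810 bases of its single exon in each control list, and 2378, 2526 and 2502 bases in the H/R lists. Leaving out each library in turn gave 7 to 12 H/R-only members (12 without control A), 12 to 20 with more peaks (20, or 35.1%, without control A, beside 26.0% of genes, and 18, or 31.6%, without H/R B, beside 32.1%), 0 to 1 with fewer and 0 to 1 control-only (Hspa1l, without control C). It gave 15 to 25 H/R-only regions (25 without control A, 23 without H/R B), 0 to 1 control-only regions (1 without control C and without H/R C) and 2 to 6 H/R-only other chaperones (6 without either control A or H/R B). The difference ranged from -0.805 to 1.21 percentage points for the 5'UTR, below 0 without control C and without H/R C, and from -1.40 to 1.35 for the 3'UTR, above 0 without the same libraries. The cause of these changes was not tested. The study's read numbers were not used here, so list length was not set against depth.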
